A study of Homo sapiens with 6 samples.

Results

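Metallothioneins are small cysteine-rich proteins that bind zinc, copper and cadmium, and the human genes lie side by side on chromosome 16. MTF1, a zinc finger transcription factor that senses free zinc, binds metal response elements in their promoters and switches them on, and it does the same at SLC30A1, which encodes the zinc exporter of the plasma membrane. Metallothionein RNA therefore serves as a readout of the zinc and copper available to a cell, and it also responds to glucocorticoids, oxidative stress and interferon. Some proteins of the STEAP family are known as reductases of iron and copper, and no such activity of STEAP1 was measured here. The 9 genes described here are the metallothioneins MT1E, MT1F, MT1G, MT1H, MT1M, MT1X and MT2A, with MTF1 and SLC30A1. They were chosen by name, with earlier results of these data known. All 9 were measured, and they belong to 18417 genes compared in all.

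RNA of A673 and SK-N-MC, established cell lines of Ewing tumor, was measured on 6 Affymetrix arrays. The A673 siSTEAP1 group holds 1 array with siRNA 2 and 1 with siRNA 3 against STEAP1, the A673 control group holds 1 array with a control siRNA, and the SK-N-MC groups are built in the same way. Every culture, controls included, received 5 nM siRNA for 48 h in medium with fetal calf serum, and RNA was taken at 80% confluency. Each line stands for a single tumor, and the labels do not name the control siRNA. Each array of a line received a different siRNA, and the labels do not say whether the cultures were independent experiments. A p-value here covers the spread between such single arrays. That spread mixes technical variation with differences between the siRNAs or between the responses of the lines. Values are log2 of the deposited intensity, differences are log2 differences from limma with their standard errors (SE), and a gene was called at a Benjamini-Hochberg adjusted p under 0.05 over all 18417 genes. Intensities of different probe sets are not on a common scale, so levels are compared between arrays. Between genes they serve only as a rough guide to which are dim.

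STEAP1, the targeted gene, was at 4.53 and 4.59 in the A673 siRNA arrays, against 6.23 in the A673 control, whereas siRNA 2 and siRNA 3 left 4.17 and 4.73 in SK-N-MC, against 7.15 in its control. Of 9 Ewing tumor markers, 8 were measured. CD99, the surface antigen used to diagnose the tumor, lay at 10.1 to 10.3 in A673 and 9.40 to 9.50 in SK-N-MC. NKX2-2, a transcription factor of the tumor, lay at 5.57 to 5.84 in A673 and 5.57 to 6.15 in SK-N-MC. FLI1, the dimmest of the 8, lay at 3.92 to 4.04 in A673 and 3.78 to 3.83 in SK-N-MC. The 9 markers of blood, epithelial, endothelial, liver and pigment cells lay between 1.01 and 3.83 on all arrays. The FLI1 values of SK-N-MC reached into that range.

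RefSeq promoter windows of build GRCh38.p14, from 250 bases before to 50 bases after the start of the gene, were at hand for 5 of the 9 genes: MT1H, MT1X, MT2A, MTF1 and SLC30A1. They are shown because the metal response element is the site that MTF1 binds at metallothioneins and SLC30A1. Its core was searched in the 2 forms TGCACNC and TGCGCNC on both strands, and the capitals mark each match, with matches on the reverse strand standing as their reverse complement. The windows are chr16:56608334-56608633 for MT2A, chr16:56682220-56682519 for MT1X and chr16:56669564-56669863 for MT1H, all on the forward strand, and chr1:211579112-211579411 for SLC30A1 on the reverse strand. Each is printed 5′ to 3′ along its gene.
MT2A: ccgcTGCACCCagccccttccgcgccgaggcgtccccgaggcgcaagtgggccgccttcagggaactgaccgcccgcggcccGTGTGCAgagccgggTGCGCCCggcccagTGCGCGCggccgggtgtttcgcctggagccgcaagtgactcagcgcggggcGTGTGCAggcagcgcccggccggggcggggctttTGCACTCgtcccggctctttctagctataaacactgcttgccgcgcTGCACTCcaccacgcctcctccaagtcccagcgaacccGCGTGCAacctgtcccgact
MT1X: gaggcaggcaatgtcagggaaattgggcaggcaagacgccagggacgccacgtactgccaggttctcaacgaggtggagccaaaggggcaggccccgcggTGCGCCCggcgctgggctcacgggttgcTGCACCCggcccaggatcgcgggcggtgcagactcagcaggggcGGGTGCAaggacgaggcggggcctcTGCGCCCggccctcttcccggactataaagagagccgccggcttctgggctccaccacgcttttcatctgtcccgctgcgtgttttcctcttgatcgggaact
MT1H: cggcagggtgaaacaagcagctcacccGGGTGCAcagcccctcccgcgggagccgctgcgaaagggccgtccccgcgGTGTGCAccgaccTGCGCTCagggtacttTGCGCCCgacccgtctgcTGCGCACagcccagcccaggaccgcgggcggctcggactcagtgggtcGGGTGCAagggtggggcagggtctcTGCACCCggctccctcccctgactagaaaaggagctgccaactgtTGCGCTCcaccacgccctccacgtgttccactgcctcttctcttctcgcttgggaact
SLC30A1: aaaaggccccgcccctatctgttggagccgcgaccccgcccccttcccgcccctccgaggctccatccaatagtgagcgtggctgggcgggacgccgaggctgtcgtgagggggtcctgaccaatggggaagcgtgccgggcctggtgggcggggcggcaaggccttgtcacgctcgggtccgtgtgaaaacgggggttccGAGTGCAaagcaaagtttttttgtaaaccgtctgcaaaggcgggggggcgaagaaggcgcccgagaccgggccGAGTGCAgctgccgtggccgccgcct

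The MT2A window held 8 cores, 5 on the forward and 3 on the reverse strand, and the MT1H window also held 8. In the MT1X window there were 4, and in the SLC30A1 window 2, both on the reverse strand, at bases -49 and 25 from the start. None overlapped. The MTF1 window, on chromosome 1, held no match to either form of the core. Of all 35116 RefSeq promoter windows of this length, 29.6% held at least 1 core, 8.6% at least 2 and 0.601% at least 4. MT2A, MT1X and MT1H each had a forward core close to the start, at bases -54, -53 and -53, and MT2A and MT1H had another at -8. A match is a description of letters and not a measured binding site.

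**Figure D1:**
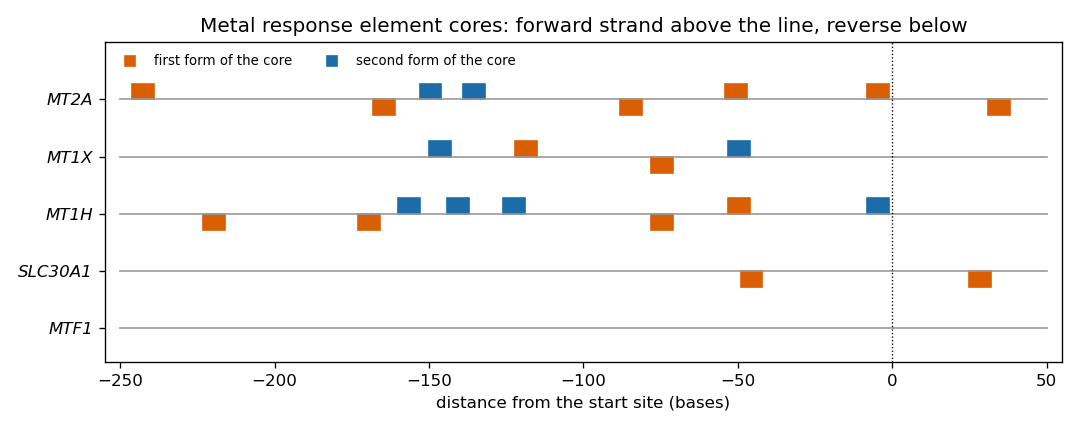
Positions of metal response element cores in the promoter windows of MT2A, MT1X, MT1H, SLC30A1 and MTF1, in bases from the start site (dotted line). Boxes above a line are on the strand of the gene, boxes below it on the reverse strand, and the colours are the 2 forms of the core. MT2A and MT1H have 8 boxes each, MT1X 4, SLC30A1 2 and MTF1 none.

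The clearest pattern in these genes was between the lines: A673 had more metallothionein RNA than SK-N-MC, whichever siRNA the cells had received. Of the 7 metallothioneins, 6 were called higher in A673 and none lower, beside 13.5% of all genes called higher and 11.4% called lower. Their median log2 difference was 1.04, beside -0.02 over all genes. SLC30A1 went the other way and was called lower in A673, and MTF1 was not called. The metallothionein coding regions are close copies of each other, so their probe sets may share signal, and the 7 genes are not independent measurements.

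MT2A encodes a widely expressed metallothionein of human tissues. It read 9.11 with siRNA 2, 8.89 with siRNA 3 and 9.06 with control siRNA in A673, against 8.09, 7.66 and 8.20 in SK-N-MC in the same order. Every A673 array thus lay above every SK-N-MC array, with a gap of 0.69 between the nearest arrays. The level in A673 was 2.05-fold that in SK-N-MC (log2 difference 1.04, SE 0.15, adjusted p = 0.00119 from limma). MT2A has 3 probe sets in the table, and the brightest was used. The other probe sets gave line differences of 1.08 and 0.98, so all 3 gave nearly the same size.

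MT1X, a basal and metal-inducible form, read 5.97, 5.90 and 5.98 in A673 for siRNA 2, siRNA 3 and control, against 5.05, 4.80 and 4.81 in SK-N-MC. The groups did not overlap, and the fold was 2.09 (log2 difference 1.06, SE 0.12, adjusted p = 3.03e-04 from limma). The 3 A673 arrays had an SD of 0.04 and the 3 SK-N-MC arrays an SD of 0.14.

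MT1F showed the largest difference between the lines. Its arrays read 6.80, 6.61 and 6.56 in A673, in the order siRNA 2, siRNA 3, control, against 5.44, 5.16 and 4.93 in SK-N-MC. The lowest A673 array stood 1.12 above the highest SK-N-MC array. This is a 2.80-fold higher level in A673 (log2 difference 1.48, SE 0.13, adjusted p = 8.46e-05 from limma), and 401 of the 18417 genes had a larger difference in that direction.

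MT1E had a difference of similar size with a wider spread. It read 5.08 with siRNA 2, 4.72 with siRNA 3 and 4.58 with control siRNA in A673, against 4.15, 2.98 and 3.18 in SK-N-MC. The SK-N-MC siRNA 2 array stood apart from the other SK-N-MC arrays, and even so lay 0.43 below the lowest A673 array. The log2 difference was 1.36 (SE 0.27, adjusted p = 0.00642 from limma), or 2.56-fold. Taken array by array, it was 0.93 between the siRNA 2 arrays, 1.75 between the siRNA 3 arrays and 1.40 between the controls.

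MT1G, another inducible form, read 7.35, 6.91 and 6.95 in A673, against 6.09, 6.28 and 5.72 in SK-N-MC, in the order siRNA 2, siRNA 3, control. The lines did not overlap (log2 difference 1.04, SE 0.15, adjusted p = 0.00117 from limma). Array by array, the line difference was 1.25 between the siRNA 2 arrays, 0.63 between the siRNA 3 arrays and 1.23 between the controls.

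MT1M and MT1H were dim. MT1M read 1.93, 1.63 and 1.96 in A673, against 1.36, 1.30 and 1.62 in SK-N-MC, and lay below the median of all probe sets on all 6 arrays, a median of 2.59 to 2.70. Its lines were separated by 0.01 between the nearest arrays, and the call (log2 difference 0.41, SE 0.12, adjusted p = 0.0354 from limma) was lost without any array except A673 siRNA 3, at adjusted p-values up to 0.133. MT1H read 2.95, 2.71 and 2.93 in A673, against 2.77, 2.50 and 2.65 in SK-N-MC, and lay below that median on 1 array. Its lines overlapped, and its difference of 0.22 (SE 0.12, adjusted p = 0.272 from limma) did not pass the threshold.

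**Figure D2:**
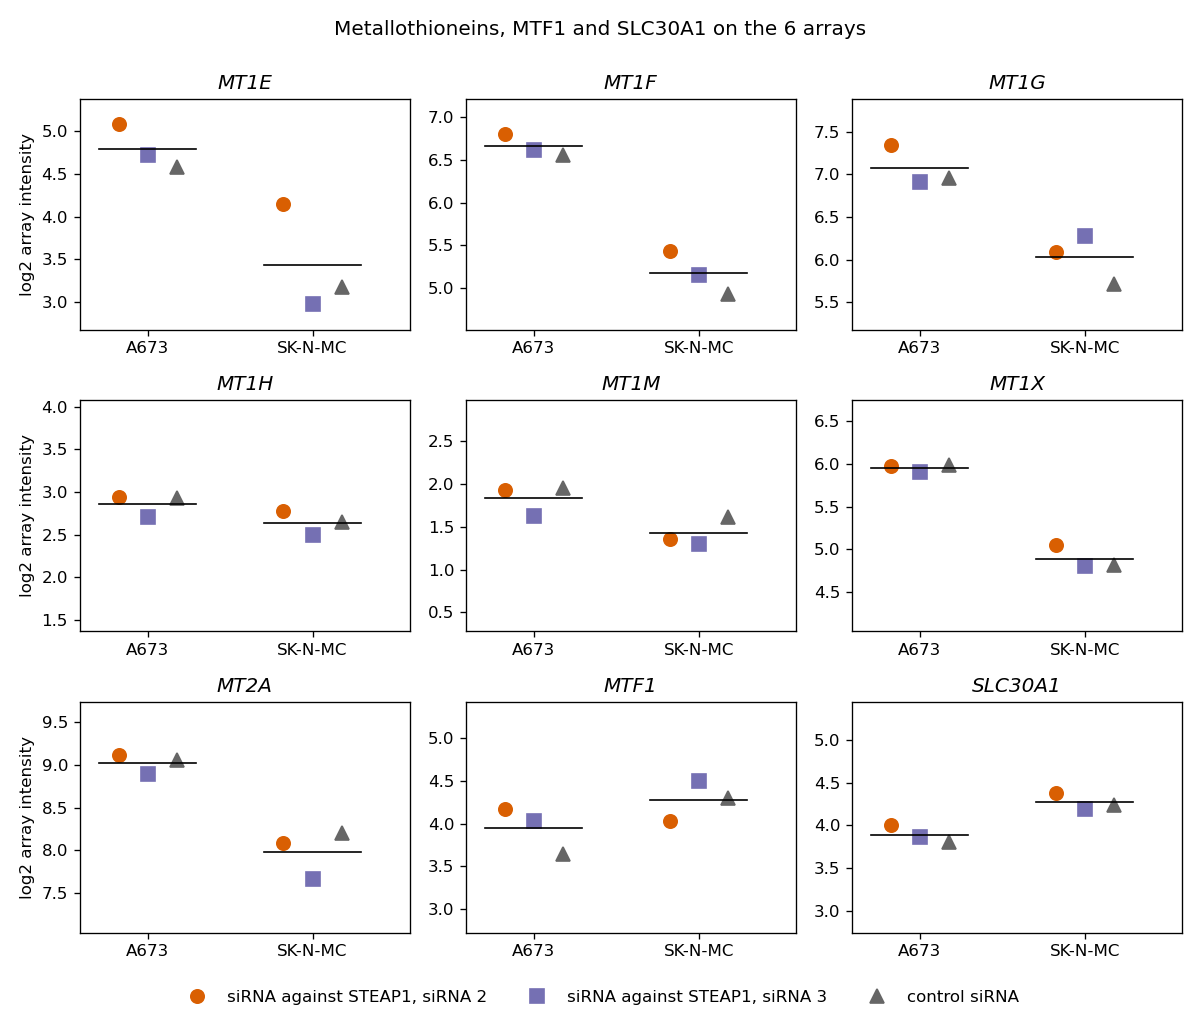
log2 array intensity of the 9 genes on the 6 arrays, A673 left and SK-N-MC right in each panel, with the line mean as a bar. Every panel spans 2.7 log2 units, so distances compare between panels while levels do not. MT1E, MT1F, MT1G, MT1X and MT2A separate by line with no overlap, and MT1F has the widest gap, 1.12.

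MTF1, the regulator, read 4.17, 4.04 and 3.65 in A673, against 4.03, 4.50 and 4.30 in SK-N-MC, in the order siRNA 2, siRNA 3, control. The lines overlapped, and the difference of -0.32 (SE 0.16, adjusted p = 0.206 from limma) was not called. It passed the threshold only when the SK-N-MC siRNA 2 array, the lowest of that line, was left out (-0.50, adjusted p = 0.0244). SLC30A1 read 4.003, 3.87 and 3.81 in A673, against 4.38, 4.19 and 4.24 in SK-N-MC. Every A673 array lay below every SK-N-MC array, with matched differences from -0.44 to -0.32. The exporter was called lower in A673 (log2 difference -0.38, SE 0.11, adjusted p = 0.0381 from limma), but the call was lost without any array except SK-N-MC siRNA 3, at adjusted p-values of up to 0.164.

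Across the 9 genes, 6 had every A673 array above every SK-N-MC array, beside 19.4% of all genes, and 1, SLC30A1, had every A673 array below, beside 18.5%. The share of genes with a larger line difference than a given member was 2.18% for MT1F, 2.67% for MT1E and between 4.20% and 4.39% for MT1X, MT1G and MT2A. It was 13.9% for MT1M and 21.6% for MT1H.

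**Figure D3:**
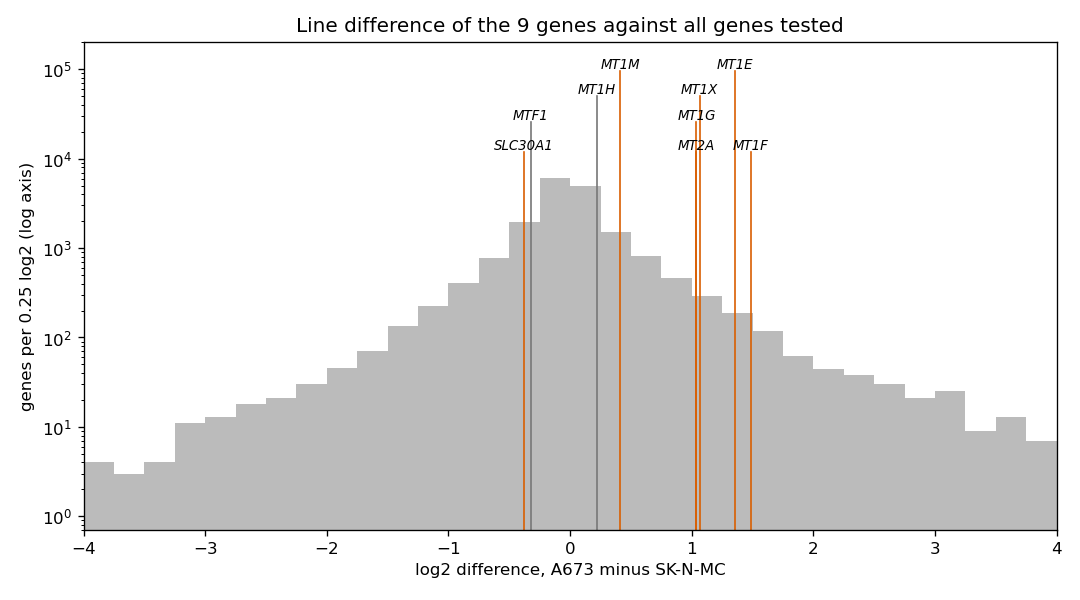
Histogram of the log2 difference A673 minus SK-N-MC over 18417 genes (grey, log count axis, cropped at 4 on either side), with the 9 genes as vertical lines, orange where called. MT1F lies farthest to the right at 1.48, while SLC30A1 at -0.38 and MTF1 at -0.32 lie left of 0.

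Some other metallothionein sequences on the array were also higher in A673, with smaller sizes. Of 8 listed genes 6 were measured, of which 2 were called higher and none lower, beside 13.5% and 11.4% of all genes: MT1B (0.65, SE 0.13, adjusted p = 0.00798 from limma) and MT1DP, a pseudogene (0.54, SE 0.12, adjusted p = 0.0114). MT1JP differed by 0.37, MT4 by 0.23, MT1HL1 by 0.16 and MT3, the neuronal form, by 0.00 (SE 0.13), none of them called. Outside that list, the pseudogene MT1P3 was called higher (0.63, SE 0.15, adjusted p = 0.0150) and MT1IP was not (0.06, SE 0.18).

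The genes that flank the cluster also differed between the lines. Of 7 measured neighbours, 4 were called higher in A673 and none lower, beside 13.5% and 11.4% of all genes, with a median of 0.94. NUDT21, a factor of RNA 3′ end processing, read 8.94, 8.52 and 8.63 in A673, against 8.21, 7.24 and 7.82 in SK-N-MC (0.94, SE 0.24, adjusted p = 0.0203 from limma). NUP93, a nuclear pore protein next to MT1X, differed by 1.12 (SE 0.16, adjusted p = 0.00143) and OGFOD1, a ribosomal protein hydroxylase, by 1.17 (SE 0.18, adjusted p = 0.00170). HERPUD1, an endoplasmic reticulum stress gene, had the largest difference, 2.19 (SE 0.19, adjusted p = 1.06e-04). BBS2 (0.31), SLC12A3 (0.16) and CETP (-0.05) were not called.

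Wider windows, chosen after these values were seen, gave the same direction. They are nested and hold the flanking genes just named, so their counts are not separate results. Among the 50 nearest measured genes on each side of the cluster, 49 of 100 were called higher in A673 and 2 lower, with a median of 0.44, beside the 13.5% and 11.4% of all genes. With 10 genes on each side the counts were 11 and 0 of 20, with a median of 0.83. With 100 on each side they were 65 and 4 of 200, with a median of 0.11. Before the cluster, 25 of the nearest 50 genes and 26 of the nearest 100 were called higher. After the cluster these counts were 24 of 50 and 39 of 100. Around SLC30A1 on chromosome 1, by contrast, 12 of 100 neighbours were called higher and 9 lower, and around MTF1 7 and 11 of 100. The higher metallothionein values in A673 therefore stood within a stretch of chromosome 16 in which nearly every called neighbour was higher in A673. The part of this stretch in the metallothionein result was not tested.

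**Figure D4:**
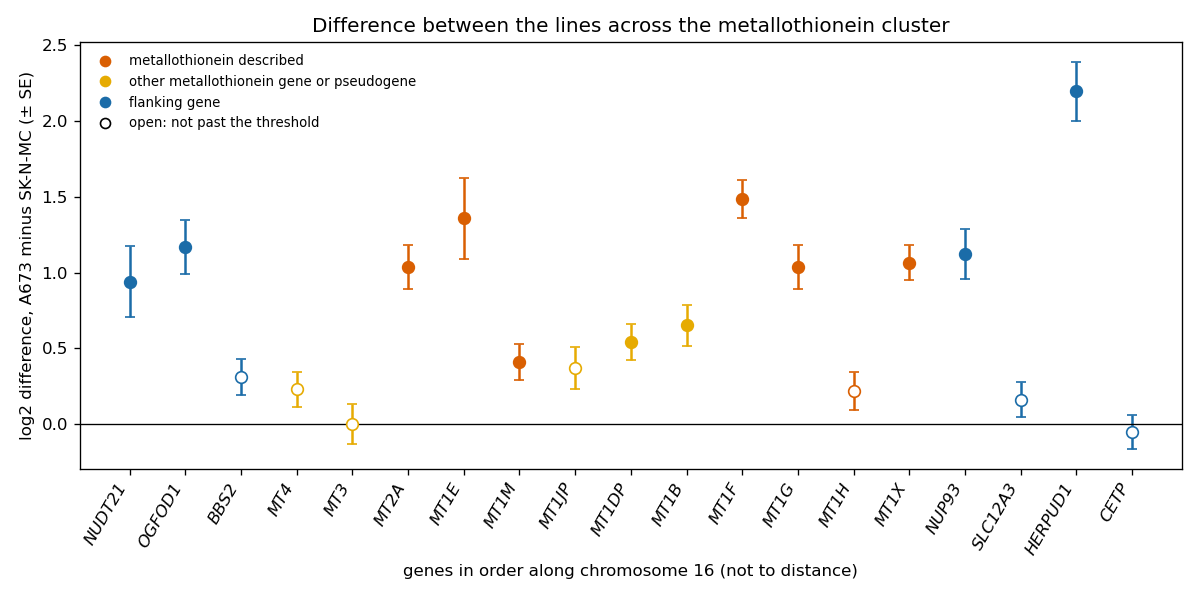
log2 difference A673 minus SK-N-MC with its SE for the measured genes of the metallothionein cluster and its flanks, in their order along chromosome 16. Orange marks the 7 metallothioneins described, yellow the other metallothionein genes and pseudogenes, blue the flanking genes, and open circles did not pass the threshold. High values occur inside and outside the cluster, with HERPUD1 at 2.19 and MT1F at 1.48, while MT3 is at 0.00.

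Silencing of STEAP1 gave no call among these genes. Across both lines 0 of the 9 genes were called by limma, as were 0% of all genes, and none of the 9 had an unadjusted p under 0.05, beside 852 of all genes. The median log2 difference over the 7 metallothioneins was 0.04, beside -0.01 over all genes. With 1 control array per line, the intervals are wide. STEAP1 itself was not called across both lines (log2 difference -2.18, SE 0.24, adjusted p = 0.293 from limma). The lack of a call is therefore no measure of a lack of response.

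The widest excursion was that of MT1E with siRNA 2, which stood 0.50 above the control in A673 and 0.97 above it in SK-N-MC. With siRNA 3 the same gene was 0.15 above the control in A673 and 0.20 below it in SK-N-MC. Its difference across lines was 0.36 with a 95% interval from -0.30 to 1.01. MT1G was higher in 3 of 4 siRNA arrays, by 0.40 with siRNA 2 in A673 and by 0.37 and 0.56 with siRNA 2 and siRNA 3 in SK-N-MC, and its difference of 0.32 had an interval from -0.03 to 0.68. MT1F was the only one of the 9 above its control in all 4 siRNA arrays, beside 10.6% of all genes, by 0.24 and 0.05 in A673 and 0.51 and 0.23 in SK-N-MC. The mean difference of MT1F was 0.26 (95% interval -0.05 to 0.56).

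On the lower side, MT1M was below its control in all 4 siRNA arrays, beside 11.2% of all genes, by at most 0.33, in a range where it was dim. MT2A was 0.11 and 0.55 below the control in SK-N-MC with siRNA 2 and siRNA 3, and 0.05 above and 0.17 below it in A673. Its other probe sets gave differences of -0.03 and -0.35, and of 0.02 and -0.17, in A673 for siRNA 2 and siRNA 3. In SK-N-MC they gave -0.27 and -0.90, and -0.13 and -0.48, in the same order. All 3 probe sets of MT2A were therefore lower in both SK-N-MC siRNA arrays, without a call (log2 difference within SK-N-MC -0.33, SE 0.23, adjusted p = 0.993 from limma). These probe sets were read on the same arrays and against the same control array, so they are not separate results. The interval of MT2A across lines ran from -0.55 to 0.16, that of MT1X from -0.24 to 0.32 and that of MT1H from -0.36 to 0.25.

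MTF1 was higher than its control in A673 with both siRNAs, by 0.52 and 0.39. In SK-N-MC it was 0.27 lower with siRNA 2 and 0.20 higher with siRNA 3. Neither line gave a call (0.45, SE 0.23, adjusted p = 1.00 in A673, and -0.04, SE 0.23, adjusted p = 0.999 in SK-N-MC, both from limma), and the difference of the responses, 0.49 (SE 0.32), was not called either. SLC30A1 stayed within 0.19 of its control on every siRNA array, with a difference across lines of 0.08 (95% interval -0.19 to 0.35).

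**Figure D5:**
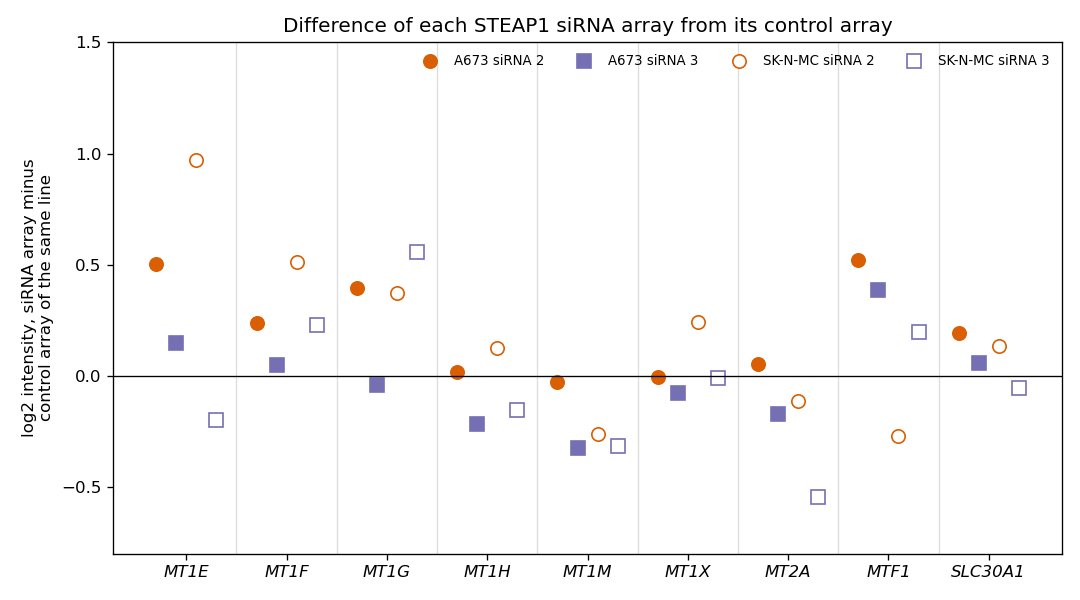
Difference in log2 intensity of each STEAP1 siRNA array from the control array of its line, for the 9 genes. Circles are siRNA 2 and squares siRNA 3, filled for A673 and open for SK-N-MC. MT1E with siRNA 2 in SK-N-MC is highest at 0.97 and MT2A with siRNA 3 in SK-N-MC lowest at -0.55.

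Within A673, 0 of the 9 genes were called, beside 0% of all genes. Both siRNAs lay above the control for 4 of them (MT1E, MT1F, MTF1 and SLC30A1), beside 32.3% of all genes, and below it for MT1M and MT1X, beside 33.1%. In SK-N-MC both siRNAs lay above the control for MT1F and MT1G, 2 of the 9, beside 31.4% of all genes, and below it for MT1M and MT2A, beside 32.7%. Within SK-N-MC 0 were called, beside 0.00543% of all genes, which is 1 gene, the interferon-stimulated XAF1. MT2A and MT1X are known to respond to interferon, and of 11 measured interferon-stimulated genes of a list of 12, 11 lay below 0 in SK-N-MC with a median of -2.35, and 1 was called. Their part in the metallothionein values was not tested. Between the lines 9 of the 11 were called lower in A673 and none higher, with a median of -1.81. Of all genes, 11.4% were called lower and 13.5% higher. IFI6, an antiviral gene of that list, read 4.50, 4.23 and 4.64 in A673, against 7.76, 9.73 and 10.3 in SK-N-MC, in the order siRNA 2, siRNA 3, control. Tested directly, the difference between the responses of A673 and SK-N-MC was called in 0 of the 9 genes, beside 0% of all genes.

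Comparing siRNA 2 with siRNA 3, all 7 metallothioneins had a positive difference, as did 8916 of the 18417 genes. The median over the 7 was 0.24, beside -0.01 over all genes. The difference itself needs no control array, but its SE and p-value come from a fit of all 6 arrays. In 6 of the 7, and in SLC30A1, siRNA 2 was the higher one in both lines, beside 24.6% of all genes, and none of the 9 was lower with siRNA 2 in both, beside 26.3%. In MT1G this held in A673 (0.44) and not in SK-N-MC (-0.18). None of the 9 genes was called, as were 0% of all genes, so this is a count of directions. The metallothioneins in it are not independent measurements, since their probe sets may share signal. Of the 6 other measured metallothionein genes of the list, 3 lay above 0 and 3 below, with a median of 0.03. Those below were MT1HL1 at -0.27, MT3 at -0.05 and MT1JP at -0.02. Outside the list, MT1P3 read 2.77 with siRNA 2 and 2.63 with siRNA 3 in A673, and 2.29 and 1.77 in SK-N-MC. MT1IP read 2.89 and 3.35 in A673, and 3.44 and 2.995 in SK-N-MC, in the same order.

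MT1E had the largest of these differences. With siRNA 2 it lay above siRNA 3 by 0.36 in A673 and by 1.17 in SK-N-MC (log2 difference 0.76, SE 0.20, unadjusted p = 0.00474 and adjusted p = 0.586 from limma), and 20 of the 18417 genes had a larger positive difference. MT2A followed, with 0.22 in A673 and 0.43 in SK-N-MC (0.33, SE 0.15, adjusted p = 0.758). MT1H differed by 0.24 and 0.28 and MT1F by 0.19 and 0.28 in the same order of lines. MTF1 went opposite ways, at 0.14 in A673 and -0.47 in SK-N-MC, and SLC30A1 differed by 0.13 and 0.19. Of 11 interferon-stimulated genes, 10 had a value below 0 for siRNA 2 against siRNA 3, with a median of -0.85 and no call.

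Zinc transporters gave the wider setting of the metallothioneins. None of the 9 other exporters of the SLC30 family and none of the 14 importers of the SLC39 family was called after silencing. SLC39A10, an importer that MTF1 is reported to repress in mouse and zebrafish, came closest, at -0.35 (SE 0.14, adjusted p = 0.989 from limma). Its arrays read 5.63 and 5.19 with siRNA 2 and siRNA 3 in A673, against 5.72 in the control, and 5.37 and 5.44 in SK-N-MC, against 5.79 in the control, so it was lower in all 4. Between the lines 5 of the 14 importers and 2 of the 9 exporters were called, beside 24.8% of all genes. SLC39A6 (0.94, SE 0.10), SLC39A13 (1.26, SE 0.17) and SLC39A14, an importer that also carries iron and manganese (1.00, SE 0.15), were higher in A673. SLC39A8, which carries zinc, manganese and cadmium, was lower in A673 by the widest margin, -1.99 (SE 0.22, adjusted p = 3.10e-04), and SLC39A7, which releases zinc from the endoplasmic reticulum, by -0.49 (SE 0.11). Of the exporters, SLC30A3, which loads zinc into synaptic vesicles, was higher (0.98, SE 0.14, adjusted p = 0.00125) and SLC30A4 lower (-1.22, SE 0.13, adjusted p = 2.66e-04). The transporters thus differed in both directions, with medians of 0.01 for exporters and 0.04 for importers.

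Other genes tied to MTF1 or to metal stress were compared in the same way, to be read beside the 13.5% of all genes called higher and 11.4% called lower. Of 6 genes reported downstream of MTF1, 3 were called higher in A673 and 1 lower: CSRP1, a LIM domain protein (5.08, SE 0.15), PGF, a placental growth factor (1.18, SE 0.23), and SELENOW, a selenoprotein (0.68, SE 0.11), were higher, and GCLC, the catalytic subunit of glutathione synthesis, was lower (-1.23, SE 0.11, adjusted p = 1.13e-04). Of 13 measured metal and proteotoxic stress genes 6 were called higher in A673 and none lower, with a median of 0.37. They were SLC7A11, the cystine importer (1.60, SE 0.17), DDIT3 (1.16, SE 0.17), TXNRD1, thioredoxin reductase (0.61, SE 0.11), BAG3 (0.54), SRXN1 (0.44) and DNAJB1 (0.42). Of 9 measured glucocorticoid-induced genes 3 were called higher, the kinase SGK1 (1.67, SE 0.12), ZBTB16 (0.86, SE 0.16) and ERRFI1 (0.62, SE 0.13), and 1 lower, KLF9 (-0.63, SE 0.12). Of 10 measured copper handling genes 1 was called higher, SCO1 (0.66, SE 0.13), and 1 lower, the copper pump ATP7A (-1.12, SE 0.16). After silencing across both lines none of these 4 lists held a called gene, and their medians lay between -0.08 and 0.01.

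Genes with a profile like that of the metallothioneins were searched by the root mean square difference of the 6 log2 values, each taken from the gene's own mean. Against the mean of the 7 metallothioneins the nearest genes were TBC1D1 (0.063), a regulator of glucose uptake, NPC1 (0.065), the lysosomal cholesterol exporter, BTBD10 (0.068), SALL1 (0.072), a zinc finger factor, and DNALI1 (0.074). All 5 were higher in A673, by 0.88 to 0.99, which follows from their being picked by likeness to this profile. Within 0.25 of the profile lay 929 genes. Among the 7 metallothioneins MT1X lay closest to their mean, at 0.09, and MT1H farthest, at 0.37. For SLC30A1 the nearest genes were EARS2 (0.035), EXOSC1, TWF2, NFS1 and PLEKHG4B (0.045), and 8791 genes lay within 0.25, so a profile this flat marks out few genes.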

How the data were processed

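The 6 arrays fall into 4 groups by the line and siRNA of the labels. The authors deposited intensities, made with RMA in Expression Console 1.1 as the submitters' processing notes name them, and the sources used here do not describe how RMA values came to be linear. Of 33297 probe sets, 19460 carry 1 gene symbol in the platform annotation, 1754 carry several and 12083 have none here. By gene identifier 19429 probe sets matched a RefSeq table, which gave the symbols used, and the brightest probe set per gene left 18417 genes. log2 intensities were fitted with limma 3.58.1 (R 4.3.3, two-sided), with terms for line and silencing, with group means for each line and the difference of responses, or with terms for line and siRNA between the siRNAs. The scripts were tested on simulated data. Precision is limited by the few arrays.

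The 9 genes, the gene lists and the tests were chosen with earlier results of these data known. By the naming rule, all 9 genes, every listed metallothionein that was measured, and the 5 genes most alike are named, and from each list some of the genes past the threshold or with the smallest p. NKX2-2, FLI1, MT1P3, MT1IP and the windows of neighbouring genes were chosen after values were seen. Alternatives changed the scaling, the handling of dim genes and of several probe sets, the variance prior, the replicate block and the arrays used.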

Additional observations from a re-analysis of the deposited data

How the results depend on the processing

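The direction of the line difference of all 7 metallothioneins and of SLC30A1 was the same under every alternative run, and MT1E, MT1F, MT1G, MT1X and MT2A stayed called under each of theirs, at adjusted p-values of at most 0.0451. MT1M lost its call with log2(intensity + 16) (0.07, adjusted p = 0.131) and with every probe set tested (adjusted p = 0.0672), and SLC30A1 with every probe set tested (adjusted p = 0.0647) and with an intensity trend (adjusted p = 0.0718). The mean line difference over the 7 metallothioneins was 0.94 and fell to 0.66 with log2(intensity + 16), which shrinks dim genes, and the mean difference between the siRNAs, 0.29, to 0.17. With 1 array left out the mean between the siRNAs ran from 0.25 to 0.33. With a filter on the mean log2, which tests fewer genes, 1355 genes were called lower in A673 at a limit of 4, and 648 higher and 521 lower at a limit of 6, where 2479 and 2096 are called without a filter. With 1 array left out the genes called lower ran from 1330, without either control array, to 2120. Across both lines 0 to 1 genes were called lower with an array left out, 1 of them without the A673 control, and 0 higher. Within SK-N-MC 0 genes were called lower with log2(intensity + 16) and at a limit of 6, 5 with an intensity trend and, with 1 array left out, 0 to 60 lower and 0 to 1 higher, with 60 and 1 without SK-N-MC siRNA 3 and 8 lower without SK-N-MC siRNA 2. With every probe set tested 1 was called higher within A673 and 1 in the difference of the responses, where 0 to 26 were called higher with 1 array left out, 26 without SK-N-MC siRNA 3. The fits without 1 array assume that a lone array varies like the other groups.

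None of the 9 genes was called after silencing under any alternative, and differences that were not called changed sign in 22 of 585 comparisons, among them that of MT1E within SK-N-MC, 0.39, which was -0.20 without siRNA 2. MTF1 within SK-N-MC stood at 0.028 after a second quantile normalization, and MT1E in the difference of the responses at 0.026 with log2(intensity + 16). With 1 array left out, differences across both lines ran from -0.042 to 0.12 for MT1X and from -0.036 to 0.45 for MTF1. Within A673 they ran from -0.041 to 0.40 for MT1G, -0.22 to 0.018 for MT1H and -0.17 to 0.052 for MT2A. Within SK-N-MC they ran from -0.20 to 0.97 for MT1E, -0.15 to 0.12 for MT1H, -0.0093 to 0.24 for MT1X, -0.27 to 0.20 for MTF1 and -0.053 to 0.14 for SLC30A1. For the difference of the responses they ran from -0.65 to 0.53 for MT1E, -0.22 to 0.053 for MT1H, -0.038 to 0.26 for MT1M and -0.0088 to 0.18 for SLC30A1, and between the siRNAs from -0.18 to 0.43 for MT1G and -0.51 to 0.18 for MTF1.

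For the siSTEAP1 arrays the replicate number of the labels names the siRNA. With the siRNA (control, 2 or 3) as a replicate block, which keeps both controls together whatever their number, 2548 genes were called higher and 2172 lower between the lines, the silencing values were the same and no call of the 9 genes changed. The siRNA 2 minus siRNA 3 differences correlated between the lines at 0.0663 over 18417 genes, and with 2 numbers this does not show a pairing.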
